A study of Mus musculus with 20 samples.

Results

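Markers of the dentate gyrus and the CA fields were followed as a check of dissection and of cell state in RNA from the left hippocampus. The 8 genes were fixed by name among 39056 genes in the count table, with Prox1, Dsp, C1ql2 and Calb1 for the dentate gyrus, Wfs1 and Fibcd1 for CA1, and Bok and Iyd for CA3. Stranded mRNA libraries were made from 20 female mice on a C57BL/6 background, 1 library from each mouse, and the mice formed 4 groups of 5. These comprised WT Non-Tg mice, miR-34a KO Non-Tg mice, WT Tg-SwDI mice and miR-34a KO Tg-SwDI mice. The KO is a constitutive deletion of Mir34a in the whole body. The Tg-SwDI transgene is human APP with the Swedish, Dutch and Iowa changes, driven by the Thy1 promoter, so that it is expressed in neurons. Behaviour was tested at 12 months and histology was done at 13 months of age, and mice were perfused with PBS before the tissue was taken. A single mouse is given by its group and its labelled replicate number.

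The hippocampus is a chain of fields with different principal neurons. Granule cells of the dentate gyrus send mossy fibres to CA3 pyramidal cells, which in turn project to CA1. Each of these neurons carries its own set of genes, so in RNA of the whole hippocampus the level of such a gene depends both on how many of its cells were dissected and on how much RNA each cell held. In bulk samples, fewer cells of a type and less RNA per cell cannot be told apart.

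The sequences below show the microRNA that the KO mice lack and the matches to its seed in the longest annotated 3′UTR of the marker genes. The seed (bases 2 to 8) or its match is in capitals. The microRNA is from RefSeq (GRCm38.p6), on chr4:150068473-150068494, plus strand, and the 3′UTRs are from GENCODE M21 (mm10), written 5′ to 3′ on the strand of the gene.
mmu-miR-34a-5p: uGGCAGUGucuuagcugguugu
Prox1, chr1:190118654-190118660, minus strand: aaccgtgacaaaCACTGCCtttata
Fibcd1, chr2:31816424-31816430, minus strand: actggccCACTGCCcagtgc
Fibcd1, chr2:31815522-31815528, minus strand: ggctatcacggaCACTGCCatcagg
Fibcd1, chr2:31814665-31814671, minus strand: cttcagcccagcCACTGCCccaggg

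Of the 8 marker genes, 2 had the letters CACTGCC in the 3′UTR. Prox1 had 1 match, at position 4560 of 5185 bases, and Fibcd1 had 3, at positions 8, 910 and 1767 of 3148 bases. The match at position 910 of Fibcd1 was followed by A. Among 14734 tested genes with a 3′UTR, 2795 (19.0%) held the letters. A match is a description of sequence and not a measured site.

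Libraries held 19549622 to 21066868 counts. Thy1, which checks the transgene label, was 685 to 769 CPM (counts scaled to the library total after TMM, a trimmed-mean normalization) in Non-Tg mice, 1905 to 2328 CPM in WT Tg-SwDI mice and 2454 to 3318 CPM in KO Tg-SwDI mice, so that the transgenic groups did not overlap on it. The part of this difference in KO against WT in Tg-SwDI mice was not tested. Choroid plexus RNA differed widely between mice. The summed level of 10 choroid plexus genes ranged from 305 to 6761 CPM in WT Non-Tg mice and from 268 to 715 CPM in KO Non-Tg mice. With the transgene it ranged from 397 to 5675 CPM in WT mice and from 414 to 5518 CPM in KO mice. KO Tg-SwDI mouse 2 was the only mouse of its group under 1000 CPM. KO Tg-SwDI mouse 8 differed most from its replicates over all genes, with a chi-square per gene of 40.2 to 60.7 in its 4 pairs against 2.38 to 17.6 in the other 36 pairs of replicates.

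In the GENCODE M21 annotation of mm10 all 8 are protein-coding genes, and the values below are sums over the exons of each. The dentate markers were Prox1 (ENSMUSG00000010175.13) on chr1:190118035-190170714, Dsp (ENSMUSG00000054889.9) on chr13:38151294-38198577, C1ql2 (ENSMUSG00000036907.9) on chr1:120340582-120343174 and Calb1 (ENSMUSG00000028222.2) on chr4:15881264-15908064. The CA1 markers were Wfs1 (ENSMUSG00000039474.13) on chr5:36966104-36989205 and Fibcd1 (ENSMUSG00000026841.7) on chr2:31813290-31846005, and the CA3 markers were Bok (ENSMUSG00000026278.14) on chr1:93685660-93695764 and Iyd (ENSMUSG00000019762.4) on chr10:3540240-3554877. Prox1, Wfs1 and Fibcd1 lie on the minus strand and the others on the plus strand.

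All 8 markers were detected in every mouse and passed the filter on low counts. Iyd had the fewest counts, 34 to 70 per mouse, and the other markers had between 465 and 4063. Levels of different genes were compared as CPM per kilobase of exon (RPKM). Wfs1, an endoplasmic reticulum membrane protein abundant in CA1 pyramidal cells, was highest, with a mean of 44.6 RPKM over the 20 mice. C1ql2, a secreted C1q-like protein of mossy fibre synapses, followed at 39.7 RPKM. Wfs1 was above C1ql2 in 16 of 20 mice, so the order of these neighbours varied between mice.

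Fibcd1, a membrane receptor for acetylated sugars that marks CA1, had a mean of 30.7 RPKM and was below C1ql2 in 20 of 20 mice. Calb1, the calcium buffer calbindin of granule cells, had 25.4 RPKM, and Bok, a BCL2-family protein enriched in CA3, had 24.8 RPKM. Calb1 was above Bok in 14 of 20 mice, and this pair was not separated beyond the spread between mice. Prox1, the transcription factor that sets granule cell identity, had 14.3 RPKM. Dsp, the desmosomal protein desmoplakin, had 4.02 RPKM, and Iyd, an iodotyrosine deiodinase, had 1.49 RPKM. Prox1, Dsp and Iyd kept this order in 20 of 20 mice. Calb1 and Wfs1 are not restricted to the field they mark here, since Calb1 is also made by CA1 pyramidal cells and interneurons and Wfs1 by other forebrain neurons.

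**Figure D1:**
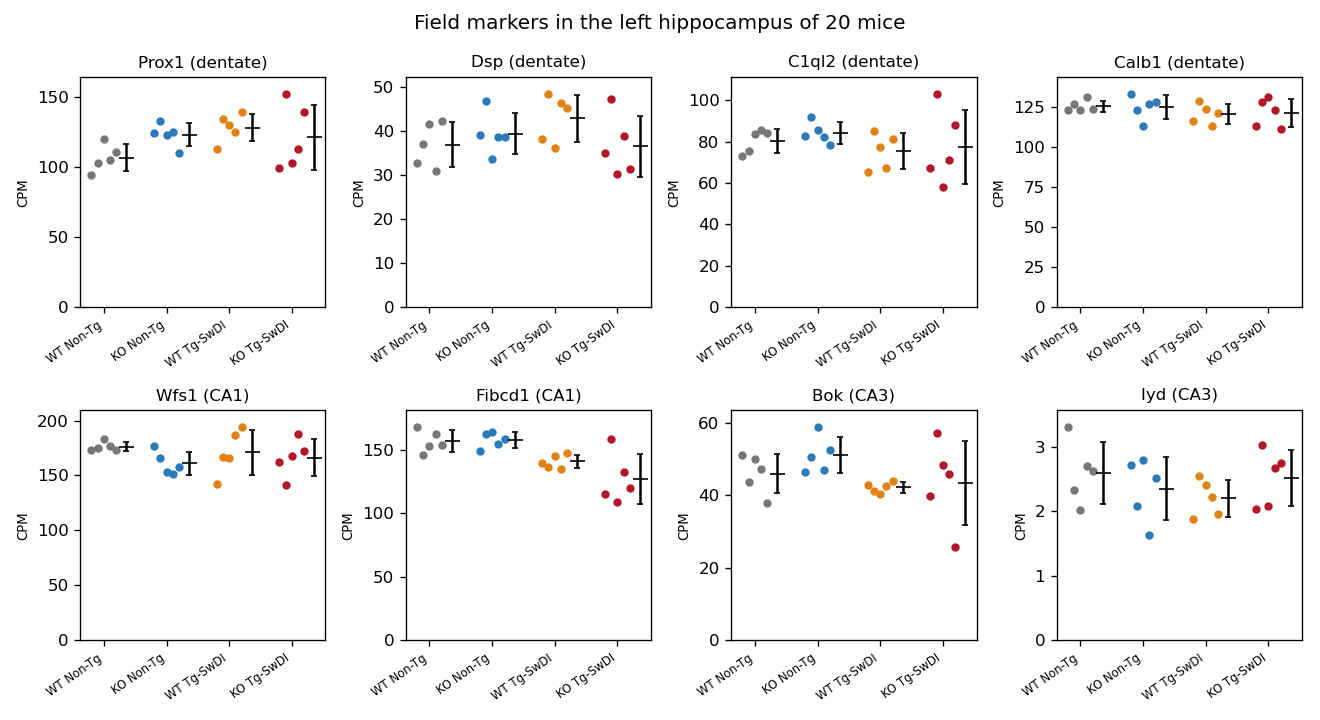
CPM (TMM-scaled, linear axes from 0) of the 8 markers in each of 20 mice by group; points are mice, and the black bar beside them is the mean with its SD (n = 5). Fibcd1 was between 146 and 168 CPM in Non-Tg mice of both genotypes and was as low as 109 CPM in KO Tg-SwDI mice, while KO Tg-SwDI mice were spread widely on Prox1, C1ql2 and Bok.

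Fibcd1 was the only marker that passed the test for the transgene. In WT Non-Tg mice it measured 168, 146, 153, 163 and 154 CPM, and in KO Non-Tg mice 149, 163, 164, 155 and 159 CPM. In WT Tg-SwDI mice it measured 140, 137, 145, 135 and 148 CPM, and in KO Tg-SwDI mice 115, 159, 109, 133 and 120 CPM. Of the 5 KO Tg-SwDI mice, 4 were below all KO Non-Tg mice, and the exception was mouse 2. Of the 5 WT Tg-SwDI mice, 4 were below all WT Non-Tg mice, and the groups overlapped in both genotypes.

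Among KO mice, Fibcd1 fell with the transgene by 0.31 on the log2 scale (SE 0.07, 95% interval −0.46 to −0.17, edgeR quasi-likelihood adjusted p = 0.00217), a fold of 0.80. Over both genotypes it fell by 0.23 (SE 0.05, edgeR adjusted p = 0.00139). In this average effect 17.2% of all genes tested were called, and in KO mice alone 20.8% were, so 1 of 8 markers was no larger a share than in all genes. Among WT mice the log2 fold change of Fibcd1 was −0.15 (SE 0.07, edgeR adjusted p = 0.299), where 4.41% of genes were called. The effects in KO and WT mice were not shown to differ, with an interaction of −0.16 (95% interval −0.37 to 0.04, edgeR adjusted p = 0.399).

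The level of Fibcd1 was read beside choroid plexus RNA. In the 9 mice with a choroid plexus sum under 1000 CPM, Fibcd1 was 146 to 164 CPM in 7 Non-Tg mice and 148 and 159 CPM in 2 Tg-SwDI mice. In the 11 mice over 1000 CPM, it was 153 to 168 CPM in 3 Non-Tg mice, all WT, and 109 to 145 CPM in 8 Tg-SwDI mice. No KO Non-Tg mouse was in the second set. With the choroid plexus level as a covariate, added after the data were seen, the change in KO mice was −0.24 and was no longer called (edgeR adjusted p = 0.0609), while the average over both genotypes was −0.18 and was called (edgeR adjusted p = 0.0323).

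**Figure D2:**
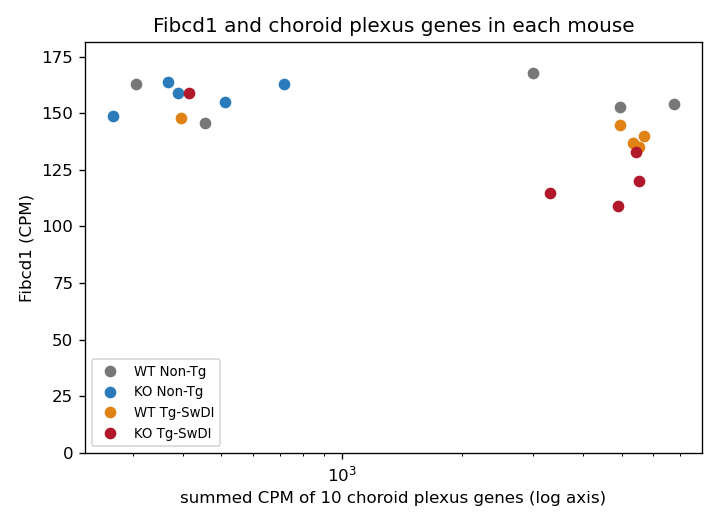
Fibcd1 in CPM (linear axis from 0) against the summed CPM of 10 choroid plexus genes (log axis), with 1 point for each of 20 mice coloured by group. The 8 Tg-SwDI mice at the right lie between 109 and 145 CPM, under the 3 Non-Tg mice there, and the 2 Tg-SwDI mice at the left lie at 148 and 159 CPM, within the range of the Non-Tg mice.

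Wfs1, the other CA1 marker, did not pass the test for the transgene. Its mean was 176 ± 4.13 CPM (SD, n = 5) in WT Non-Tg and 161 ± 10.4 in KO Non-Tg mice, and with the transgene 172 ± 20.4 in WT and 166 ± 16.9 in KO mice. Its log2 fold change with the transgene was 0.05 in KO mice (95% interval −0.10 to 0.19) and −0.04 in WT mice (95% interval −0.19 to 0.11). In the log2 ratio of Fibcd1 to Wfs1 within each mouse, the scaling of libraries cancels. This ratio was −0.03 ± 0.13 (SD, n = 5) in KO Non-Tg and −0.40 ± 0.32 in KO Tg-SwDI mice, with overlap through mouse 2 at 0.16. In WT mice it was −0.17 ± 0.09 without and −0.27 ± 0.18 with the transgene, and these groups overlapped.

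Among the dentate markers Prox1 had the largest fold change between 2 groups. It measured 94.5, 103, 120, 105 and 111 CPM in WT Non-Tg mice and 124, 133, 123, 125 and 110 CPM in KO Non-Tg mice. In WT Tg-SwDI mice it measured 113, 134, 130, 125 and 139 CPM, and in KO Tg-SwDI mice 99.6, 152, 103, 113 and 139 CPM. WT Non-Tg mice were lowest on average, and 4 of 5 mice in each of KO Non-Tg and WT Tg-SwDI were above all of them, with 1 mouse of each group overlapping.

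The log2 fold change of Prox1 with the transgene in WT mice was 0.27 (95% interval 0.06 to 0.47, edgeR adjusted p = 0.157). With the KO in Non-Tg mice it was 0.21 (95% interval 0.0049 to 0.41, edgeR adjusted p = 0.615). Neither passed, although the change with the transgene in WT mice was called when the 10 compared mice were fitted alone (0.26, edgeR adjusted p = 0.0172). The interaction was −0.29 (edgeR adjusted p = 0.284).

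C1ql2 was highest on average in KO Non-Tg mice. Its mean was 80.5 ± 5.75 CPM (SD, n = 5) in WT Non-Tg and 84.3 ± 5.18 in KO Non-Tg mice, and with the transgene 75.4 ± 8.68 in WT and 77.5 ± 18.2 in KO mice, and no comparison was called. The log2 ratio of C1ql2 to Prox1 was −0.51 to −0.29 in WT Non-Tg mice, −0.61 to −0.49 in KO Non-Tg mice, −0.89 to −0.65 in WT Tg-SwDI mice and −0.83 to −0.56 in KO Tg-SwDI mice. WT Non-Tg and WT Tg-SwDI mice did not overlap on this ratio, and KO Non-Tg and KO Tg-SwDI mice overlapped. Of single genes tested, 6.69% separated WT Non-Tg from WT Tg-SwDI mice. The ratios were chosen later, and a share over other ratios is not given here. Within groups the 2 genes moved together: the deviations of the 20 mice from their group means had a Pearson r of 0.91 and a Spearman rho of 0.91. These points share libraries, and the value is a description.

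**Figure D3:**
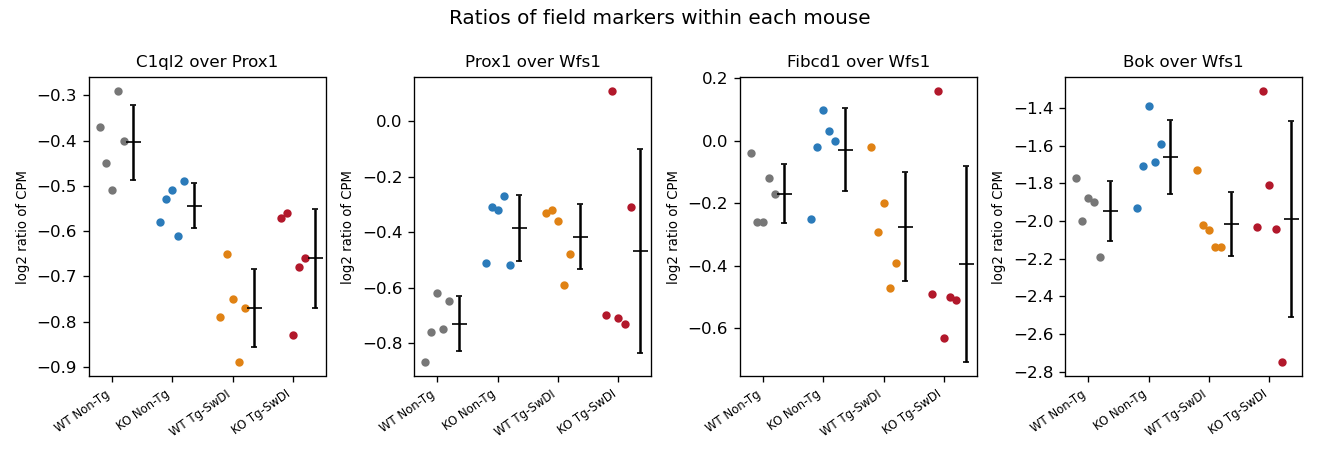
Log2 ratio of CPM of 2 markers within each of 20 mice by group; points are mice and the black bar is the mean with its SD (n = 5). C1ql2 over Prox1 was −0.51 to −0.29 in WT Non-Tg and −0.89 to −0.65 in WT Tg-SwDI mice, and Prox1 over Wfs1 was −0.87 to −0.62 in WT Non-Tg and −0.59 to −0.32 in WT Tg-SwDI mice. Both ratios hold Prox1.

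Prox1 set against Wfs1 compares a single dentate marker with a single CA1 marker in the same mouse. The log2 ratio was −0.73 ± 0.10 (SD, n = 5) in WT Non-Tg and −0.39 ± 0.12 in KO Non-Tg mice, and with the transgene −0.42 ± 0.12 in WT and −0.47 ± 0.37 in KO mice. WT Non-Tg mice lay below all KO Non-Tg and all WT Tg-SwDI mice on it. Of single genes tested, 2.23% separated WT Non-Tg from KO Non-Tg mice and 6.69% separated them from WT Tg-SwDI mice. This ratio too was chosen later, and a share over other ratios is not given here. Prox1 and Wfs1 each overlapped between these groups when taken alone. Prox1 is also in the ratio of C1ql2 to Prox1, so these ratios are not separate observations. KO Tg-SwDI mouse 2, at 0.11, was the highest of its group. The dentate markers did not move as a set. With the transgene in WT mice the log2 fold change was 0.27 for Prox1 and 0.21 for Dsp, but −0.09 for C1ql2 and −0.06 for Calb1. None of these was called, and the ratio does not measure the share of a field.

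Calb1 was the steadiest marker. Its mean was 125 ± 3.34 CPM (SD, n = 5) in WT Non-Tg and 125 ± 7.60 in KO Non-Tg mice, and with the transgene 121 ± 6.54 in WT and 121 ± 8.80 in KO mice. All 20 mice lay between 111 and 133 CPM, and all groups overlapped. Its within-group SD was 0.082 on the log2 scale, against a median of 0.138 over all genes tested. The change with the transgene was −0.04 in KO mice (95% interval −0.15 to 0.07) and −0.06 in WT mice (95% interval −0.17 to 0.05), which bounds a fall at a fold of 0.89.

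Dsp had a mean of 36.9 ± 5.10 CPM (SD, n = 5) in WT Non-Tg and 39.3 ± 4.65 in KO Non-Tg mice, and with the transgene 42.8 ± 5.38 in WT and 36.5 ± 6.91 in KO mice. KO against WT in Tg-SwDI mice gave −0.23 (95% interval −0.48 to 0.02, edgeR adjusted p = 0.315), and 3 of 5 KO Tg-SwDI mice were below all WT Tg-SwDI mice. The groups overlapped.

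The CA3 markers had within-group SDs of 0.246 for Bok and 0.252 for Iyd on the log2 scale, and that of Bok was 0.151 without KO Tg-SwDI mouse 8. Bok measured 51.0, 43.6, 49.8, 47.3 and 37.9 CPM in WT Non-Tg mice and 46.4, 50.6, 58.7, 46.9 and 52.5 CPM in KO Non-Tg mice. It measured 42.8, 41.1, 40.3, 42.5 and 44.0 CPM in WT Tg-SwDI mice and 39.8, 57.1, 48.2, 45.8 and 25.6 CPM in KO Tg-SwDI mice. The lowest value of all, 25.6 CPM, was in KO Tg-SwDI mouse 8, while WT Tg-SwDI mice lay close together and all groups overlapped. Other CA3 genes were not low in that mouse. Iyd was 0.14 above its group mean on the log2 scale. The summed level of 6 further CA3 genes, named by their list below, was 643 CPM. That was the highest of its group, which had a median of 525 CPM. With the transgene the log2 fold change of Bok was −0.24 in KO mice (95% interval −0.53 to 0.06) and −0.13 in WT mice (95% interval −0.42 to 0.17). Without KO Tg-SwDI mouse 8 the change in KO mice was −0.10. Iyd ranged from 1.63 to 3.31 CPM, with group means from 2.20 to 2.60 CPM. Its log2 fold change with the transgene was 0.09 in KO mice (95% interval −0.25 to 0.43). In WT mice it was −0.24 (95% interval −0.58 to 0.11). Neither was called, and the intervals leave room for a change of either sign.

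None of the 8 markers passed the threshold for the loss of miR-34a. In Tg-SwDI mice, where 1.99% of all genes were called, edgeR's quasi-likelihood test called 0 markers, 1 (Fibcd1) had an unadjusted p under 0.05, beside 18.9% of all genes, and DESeq2 and edgeR's exactTest called 0. Fibcd1 changed by −0.15 on the log2 scale in this comparison (edgeR adjusted p = 0.240), and without KO Tg-SwDI mouse 2 by −0.24, which was called (edgeR adjusted p = 0.0246). In Non-Tg mice, where 0% of genes were called by the quasi-likelihood test, 1 marker (Prox1) had an unadjusted p under 0.05, beside 8.08% of all genes, and DESeq2 and edgeR's exactTest again called 0 markers.

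Averaged over both transgene states, 0.0807% of genes were called for the KO by edgeR, with 0 markers called, 0 at an unadjusted p under 0.05 (9.31% of all genes) and 0 by DESeq2. In the interaction 0.608% of genes were called, with 0 markers, 1 (Prox1) at an unadjusted p under 0.05 (17.5% of all genes) and 0 by DESeq2. For Tg-SwDI against Non-Tg in WT mice edgeR called 0 markers, 2 (Prox1 and Fibcd1) had an unadjusted p under 0.05, beside 15.2% of all genes, and DESeq2 and the exactTest called 0. In the 4 pairwise comparisons 0 of 8 markers separated the groups without overlap. Of all genes tested, 3.16% did so for KO against WT in Tg-SwDI mice and 2.23% in Non-Tg mice, and 12.8% for the transgene in KO mice and 6.69% in WT mice.

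**Figure D4:**
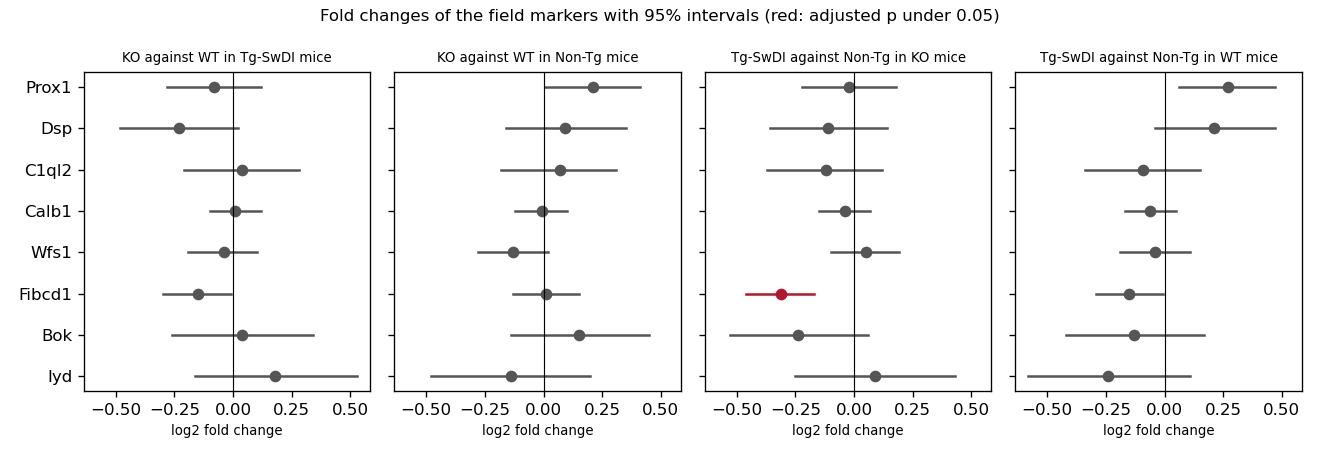
Log2 fold changes (points) with 95% intervals (lines) of the 8 markers in 4 pairwise comparisons from the edgeR quasi-likelihood fit; red marks an adjusted p under 0.05. Fibcd1 in KO mice, at −0.31, is the 1 red point, and Calb1 has the narrowest intervals in each panel.

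No mouse was far enough from the others of its group on any marker to pass Dixon's test in the 32 groups of 5. Averaged over the 8 markers, KO Tg-SwDI mouse 2 departed most from its group. Its mean absolute deviation from the group mean was 0.32 on the log2 scale, against 0.06 to 0.21 in the other 19 mice. It was above the group mean on 7 markers, by up to 0.45 for C1ql2, and below it for Wfs1, by −0.23. KO Tg-SwDI mouse 8 had the largest single deviation, −0.71 for Bok. KO Tg-SwDI mouse 1 was below its group mean on all 8 markers.

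Genes whose deviations from group means were most like those of each marker were named over the 20 mice, as a description. Pearson's r is given with Spearman's rho. For Prox1 they were C1ql2 (r = 0.91, rho = 0.91) and Foxk1 (0.87, 0.82), and for C1ql2 they were Prox1 and Foxk1 (0.90, 0.88). Dsp was nearest to Zfp334 (r = 0.77, rho = 0.72) and Map3k4 (0.76, 0.74), and Calb1 was close to Fam220a (0.83, 0.77). Wfs1 was nearest to Scd4 (r = 0.86, rho = 0.86) and Nxph4 (0.83, 0.82). Both had low levels, with means of 0.434 CPM for Scd4 and 2.72 CPM for Nxph4. Fibcd1 was nearest to Ddn (r = 0.88, rho = 0.75), which encodes the dendritic protein dendrin, and Galnt16 (0.84, 0.68). Bok was nearest to Tbrg1 (r = 0.94, rho = 0.86) and Cpe (0.94, 0.79), and without KO Tg-SwDI mouse 8 the r was 0.85 for Tbrg1 and 0.82 for Cpe. Iyd was nearest to Fadd (r = 0.81, rho = 0.78) and Kcnmb2 (0.75, 0.63), with low means of 3.39 and 3.57 CPM.

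Further genes of the same fields were read for the average Tg-SwDI effect, in which the median of all genes was −0.0076. Of all genes tested in this effect, 17.2% were called, 1828 higher and 938 lower, and 30.1% had an unadjusted p under 0.05. Of 6 further CA1 genes, 3 fell and 0 rose, with a median of −0.18. Ndst4, a heparan sulfate sulfotransferase, fell by 0.52 (edgeR adjusted p = 2.52e-05), from 43.1 ± 3.73 CPM in WT Non-Tg and 44.8 ± 3.72 in KO Non-Tg mice to 32.0 ± 4.32 with the transgene in WT and 29.2 ± 5.42 in KO mice (SD, n = 5). Mpped1 fell by 0.19 and Pou3f1, a POU transcription factor, fell by 0.18. With the choroid plexus covariate, genes called lower in the average effect went from 938 to 188 and genes called higher from 1828 to 1185. The further genes here and below were not read in that fit. Ndst4 was also called within WT mice, at −0.43 (edgeR adjusted p = 0.0202), where 4.41% of all genes were called.

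Of 9 further granule cell genes, 2 fell and 2 rose, beside 17.2% of all genes called in either direction, with a median of −0.01. The cation channel gene Trpc6 fell by 0.29 and Plk5 by 0.28, while Glis3 rose by 0.36 and Npnt by 0.21. Of 6 further CA3 genes 0 were called by edgeR and 1 had an unadjusted p under 0.05, beside 30.1% of all genes. Cpne4 had the smallest edgeR adjusted p (−0.11, adjusted p = 0.0635). Of 6 CA2 genes, Rgs14, a regulator of G protein signalling, fell by 0.13 and the others were not called. Rgs14 was called within KO mice, where 20.8% of all genes were called. Within WT mice 0 CA2 genes were called, beside 4.41% of all genes. The interaction called 0 CA2 genes (Rgs14 edgeR adjusted p = 0.527).

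**Figure D5:**
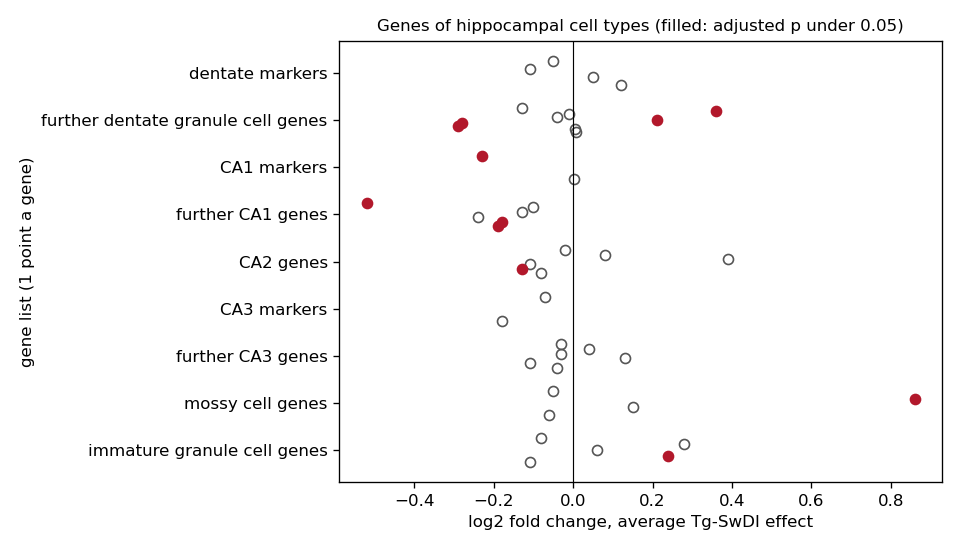
Log2 fold change for the average Tg-SwDI effect of each gene (1 point a gene) in 9 lists of hippocampal cell types; filled points have an edgeR adjusted p under 0.05. Fibcd1 and 3 further CA1 genes lie to the left of 0 as filled points, and the granule cell genes have 2 filled points on each side.

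Of 4 mossy cell genes, Csf2rb2, a cytokine receptor subunit, rose by 0.86, beside 17.2% of all genes called. Its group means were low, from 1.39 CPM in KO Non-Tg to 2.83 CPM in KO Tg-SwDI mice. The other mossy cell genes were not called, and the median of the list was 0.05. Of 5 genes of immature granule cells, Sox11 rose by 0.24. It was called within KO mice, beside 20.8% of all genes, but not within WT mice, beside 4.41%. The interaction called 0 of these 5 genes. Of 9 mossy fibre synapse genes, the neurotrophin gene Bdnf fell by 0.22. Of 6 desmosome genes 0 were called by edgeR and 0 had an unadjusted p under 0.05, beside 30.1% of all genes. Jup had the smallest adjusted p of these (0.10, edgeR adjusted p = 0.217). Of 7 immediate early genes 0 were called by edgeR and 1 had an unadjusted p under 0.05, again beside 30.1% of all genes. Their median was −0.31, and Nr4a1 had the smallest adjusted p (−0.46, edgeR adjusted p = 0.148). The genotypes had different values for these 7 genes. In WT mice the median was −0.75, 7 had an unadjusted p under 0.05, beside 15.2% of all genes, and 0 were called by edgeR. Npas4 had the smallest adjusted p there (−0.86, edgeR adjusted p = 0.0843). In KO mice the median was 0.10, with 0 called by edgeR and 0 at an unadjusted p under 0.05, beside 33.5% of all genes. In the interaction the median was 0.88 and 5 had an unadjusted p under 0.05, beside 17.5% of all genes. There 0 were called by edgeR, so the difference between genotypes was not shown.

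Other cell types were read for the average Tg-SwDI effect in the same libraries, where 17.2% of all genes were called, 1828 higher and 938 lower. The microglia genes Aif1, Cx3cr1, P2ry12 and Tmem119 rose, by 1.09, 1.06, 0.58 and 0.58. All 5 astrocyte genes rose, led by Gfap at 1.94, Aqp4 at 0.74, Slc1a3 at 0.20 and Aldh1l1 at 0.22. Of 5 oligodendrocyte genes 4 rose, namely Mag, Mbp, Mobp and Mog, by 0.15 to 0.24. Within KO mice 4 were called, beside 20.8% of all genes, with a median of 0.26. Within WT mice 0 were called, beside 4.41% of all genes, with a median of 0.07. The interaction called 0 of them. Of 5 neuron genes Syt1 fell by 0.18, of 5 interneuron genes Gad1 fell by 0.10, and of 5 endothelium genes Flt1 rose by 0.15. Within WT mice 0 neuron, 0 interneuron and 0 endothelium genes were called, beside 4.41% of all genes. The part of these genes' cell types in the lower Fibcd1 was not tested.

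Lists for tissue next to the hippocampus were read as a check of the dissection, in the average Tg-SwDI effect, where 17.2% of all genes were called. Of 5 thalamus genes, Prkcd rose by 0.36, Synpo2 rose by 0.29 and Slc17a6 fell by 0.31. Of 6 striatum genes, Adora2a rose by 0.46 and Ppp1r1b by 0.33, with 2 called within KO mice and 0 within WT mice. Adora2a was low, with group means from 1.41 to 2.49 CPM. The summed striatum level was 105 to 127 CPM in every mouse with a choroid plexus sum over 1000 CPM. The 3 Non-Tg mice among them had 107, 111 and 115 CPM. All mice with a lower choroid plexus sum were below 105 CPM. They included WT Tg-SwDI mouse 7 at 94.6 CPM and KO Tg-SwDI mouse 2 at 87.9 CPM. The part of choroid plexus RNA in these rises was not tested. Of 6 neocortex genes 0 were called by edgeR and 2 had an unadjusted p under 0.05, beside 30.1% of all genes. Fezf2 had the smallest edgeR adjusted p (−0.22, adjusted p = 0.0928). Of 10 choroid plexus genes, Prlr alone was called for the average effect (1.82, edgeR adjusted p = 0.0290). In KO mice 8 were called, beside 20.8% of all genes, with a median of 2.80. Summed levels ranged from 69.0 to 109 CPM for the thalamus genes and from 162 to 269 CPM for the neocortex genes, and no list was at 0. Their part in the marker levels was not tested.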

How the data were processed

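The authors used STAR with the mm10 build, assigned reads to ENSEMBL genes by FeatureCounts and deposited the raw counts. The strand setting and the treatment of multi-mapping reads are not given in the sources used here. Symbols came from GENCODE M21, which matched 38872 of 39056 identifiers (99.5%). The software was R 4.3.3, edgeR 4.0.16, limma 3.58.1, DESeq2 1.42.0 and Python 3.11.15. After a filterByExpr filter on group (at least 10 counts, and 15 in total), edgeR's quasi-likelihood model with TMM factors was fitted once to all 4 groups, leaving 16 residual degrees of freedom. P-values were adjusted by the Benjamini-Hochberg method over 16107 genes, at an FDR of 0.05. RPKM was CPM per kilobase of merged exons. Each mouse gave 1 library, and 40 pairs of replicates differed by 2.38 to 60.7 in chi-square per gene, above sampling noise, with the 4 highest values in pairs with KO Tg-SwDI mouse 8. Depth limits Iyd most.

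The 8 markers were named in every comparison. From each further list, all called genes were named when 4 or fewer were called, otherwise those with the smallest adjusted p, and the gene with the smallest adjusted p when none was called. The members and lists were chosen with earlier results of these data known. Ratios of markers were chosen later and are descriptions. The test was checked on simulated data. Its first pass mark, a number of calls, was not met, and was replaced after that was seen by recovery of the fold changes, coverage of the intervals and calibration of p-values. Some results that these rules select are not reported here.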

Additional observations from a re-analysis of the deposited data

How the results depend on the processing

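The 8 markers were refitted with RLE factors, library size alone, no filter, a mean CPM of at least 1, the replicate number as a block, the 10 compared mice alone, edgeR's exactTest, DESeq2 and each mouse left out, and, added after seeing the data, with a choroid plexus covariate and with the trend on GC content and length removed. Of 1632 fold changes recomputed, 1629 kept their side of the threshold and 0 called values changed sign, and among 1572 past the threshold in neither fit, 83 changed sign. Markers called for KO against WT in Tg-SwDI mice ranged from 0 to 1 with mice left out, the 1 being Fibcd1 without KO Tg-SwDI mouse 2. For Tg-SwDI against Non-Tg, 0 markers were called in KO mice with the choroid plexus covariate, and 1 (Prox1) in WT mice with the 10 compared mice alone. Over its alternatives Fibcd1 in KO mice ran from −0.42 to −0.24, with edgeR or DESeq2 adjusted p from 1.67e-05 to 0.0609. Of 224 group means recomputed, 0 moved by more than 1 SD. Mice with the same replicate number did not deviate together: of 16 such pairs 2 had a correlation over 0.1 (−0.404 to 0.154). With the replicate block Fibcd1 was −0.31 in KO mice (edgeR adjusted p = 0.00282), no marker call changed, and genes called for KO against WT in Tg-SwDI mice went from 320 to 8, where DESeq2 called 733. Precision is limited by 5 mice in each group, and for Iyd by its few counts.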
